A study of Homo sapiens with 12 samples.

Results

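The FOS family of transcription factors was examined in HUDEP-2 cells, and its members were taken as the rows of the deposited count table whose gene symbol is FOS, FOSB, FOSL1 or FOSL2. All 4 were found among the 54628 genes of the table, and all 4 were among the 15492 genes that passed the filter on low counts. HUDEP-2 is an immortalised erythroid precursor line derived from human umbilical cord blood, and it needs Kit receptor signaling to survive and proliferate. Every culture expressed the CRISPR interference repressor dCas9-KRAB together with 1 guide RNA, either a scrambled sequence (sgControl) or a guide aimed at an element near EGR1 (sgEGR1, called EGR1-KD in the labels). Guide-carrying cells had been sorted on GFP after lentiviral infection. The expansion medium contained dexamethasone, erythropoietin, doxycycline and SCF (stem cell factor), which binds and activates Kit. All cells were then starved for 5 h in medium with albumin, and were treated with PBS or with 50 ng/mL SCF for 1 h. RNA-seq was available for sgControl PBS, sgControl SCF, sgEGR1 PBS and sgEGR1 SCF, with 3 replicates per group and 12 libraries in all. HUDEP-2 is a single immortalised line, so the replicates are cultures of that line and not donors.

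FOS proteins are basic leucine zipper factors that cannot bind DNA alone and pair with JUN proteins to form AP-1. FOS and FOSB carry transactivation domains, whereas FOSL1 (FRA1) and FOSL2 (FRA2) lack the C-terminal transactivation domain and depend more on their partners. FOS is the textbook immediate early gene: growth factor receptors such as Kit activate RAS and ERK, ERK phosphorylates ternary complex factors bound beside SRF at the FOS promoter, and the short-lived transcript peaks and decays quickly.

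In GRCh38, FOS lies on the plus strand at chr14:75278826-75282230 and FOSB on the plus strand at chr19:45467995-45475179. FOSL1 lies on the minus strand at chr11:65892049-65900573, and FOSL2 on the plus strand at chr2:28392448-28417317. Their merged GENCODE exons cover 3.186, 5.553, 1.887 and 7.162 kb, respectively, and levels are compared between members only after division by these lengths. ERCC1 on the opposite strand spans FOSB, and FOSL2-AS1 runs opposite to FOSL2, but neither shares an exon base with the member (0 bases each). A RefSeq promoter was at hand for 3 of the 4 members, and FOSL1 is named only. The stretches below set FOS, FOSB and FOSL2 side by side. Each holds TGACGT, the core of the cAMP response element, on the strand of the gene. It begins 64 bases before the RefSeq start in FOS, 60 in FOSB and 66 in FOSL2. Whether it bears on their levels was not tested. Capitals mark TGACGT and the TATA box TATAAA.
FOS, chr14:75278753-75278808, plus strand of GRCh38.p14: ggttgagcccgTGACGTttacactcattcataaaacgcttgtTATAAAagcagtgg
FOSB, chr19:45467921-45467976, plus strand of GRCh38.p14: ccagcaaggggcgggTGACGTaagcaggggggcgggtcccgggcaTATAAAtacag
FOSL2, chr2:28392783-28392812, plus strand of GRCh38.p14: gtctggggtTGACGTgagtgaatccacatg
The TATA box begins 33 bases before the start of FOS and 30 before that of FOSB, and no TATAAA was found in the 250 bases before the start of FOSL2. Among 35116 RefSeq promoter windows of 250 bases, 7.1% held TGACGT and 10.7% held TATAAA on either strand. The full element TGACGTCA (1.65% of windows, each of which also holds TGACGT), the AP-1 motif TGANTCA (6.57%), the EGR motif GCGTGGG (6.19%) and the CArG box bound by SRF (1.16%) were not found in these 3 windows, which says only that the letters are absent there. Bases more than 250 before the start were not searched, so SRF sites farther upstream would be missed. The FOSL2 stretch is shorter because GENCODE places an exon of another FOSL2 transcript just before the RefSeq start, and 11 of the 30 bases printed lie in that exon.

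The sgEGR1 guide is shown because it defines the groups. It matched hg38 exactly at 1 place, chr5:138464830-138464849 on the plus strand beside the PAM CGG, with its centre at -640 bases from the annotated start of EGR1.
sgEGR1: ggatgacagcgatagaaccc
EGR1 itself, a zinc finger immediate early factor, was measured first as a check of the labels. In sgControl cells it stood at 10.9, 5.99 and 7.45 CPM (counts per megacount, after TMM scaling of the totals) after PBS and at 208, 239 and 171 CPM after SCF in replicates 1, 2 and 3. In sgEGR1 cells it stood at 2.04, 1.12 and 0.977 CPM after PBS and at 40.4, 57.4 and 203.6 CPM after SCF. The library labelled sgEGR1 SCF replicate 3 therefore lay within the sgControl SCF range and went against its label. The members' SCF responses and guide differences and the list counts are given with and without it.

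Library totals ranged from 23.5 to 32.04 megacounts, and TMM factors from 0.974 to 1.02. Replicate 1 of each group stood apart from replicates 2 and 3: when replicate 1 was given its own term beside the 4 group coefficients, 13.1% of the genes tested were called higher in replicate 1 and 13.4% lower (quasi-likelihood test of edgeR, Benjamini-Hochberg adjusted p under 0.05). The labels give no date or batch, so this difference has no name beyond the replicate number, and it is reported beside each result it touches. The erythroid identity of the cells was evident in every library, with GATA1 at 277 to 322 CPM, KLF1 at 670 to 792 CPM and KIT at 455 to 551 CPM. Of 17 markers of other cells, 9 had 0 counts in all 12 libraries, among them CD3E, MPO and PF4. Others were present in every library: EPCAM at 138 to 170 CPM, VIM at 89.8 to 185 CPM, PTPRC at 21.9 to 34.2 CPM and ITGA2B at 12.1 to 35.1 CPM. In bulk RNA, fewer cells of a type and less RNA per cell cannot be told apart.

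FOS, the founding member, was the most variable of the 4. After PBS, FOS stood at 21.5, 5.24 and 5.20 CPM in sgControl replicates 1, 2 and 3, and at 16.7, 2.53 and 3.52 CPM in the sgEGR1 replicates. After SCF it stood at 146, 15.5 and 12.01 CPM in sgControl cells and at 141, 15.4 and 13.9 CPM in sgEGR1 cells. Replicate 1 was the highest library in all 4 groups, by 4.11-fold over the mean of replicates 2 and 3 in sgControl PBS, 10.6-fold in sgControl SCF, 5.51-fold in sgEGR1 PBS and 9.63-fold in sgEGR1 SCF. As a result the PBS and SCF groups overlapped in both guides, since each replicate 1 PBS library lay above replicates 2 and 3 of the SCF group. The group means, 10.6 ± 9.38 CPM (SD, n = 3) and 57.9 ± 76.6 CPM in sgControl cells and 7.58 ± 7.90 CPM and 56.7 ± 72.8 CPM in sgEGR1 cells, describe no single library well.

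FOSB, the closest relative of FOS, separated the treatments in every library. It stood at 13.5, 6.10 and 7.25 CPM in sgControl PBS and at 74.7, 62.8 and 47.2 CPM in sgControl SCF. In sgEGR1 cells it stood at 11.6, 4.36 and 5.34 CPM after PBS and at 82.8, 64.4 and 60.2 CPM after SCF. Replicate 1 was again the highest library of each group, but by 2.02-fold and 2.39-fold after PBS and by 1.36-fold and 1.33-fold after SCF (sgControl and sgEGR1, respectively). The lowest SCF library lay well above the highest PBS library with either guide.

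FOSL1 was the least variable member and the lowest in CPM after PBS. It stood at 2.31, 2.44 and 1.98 CPM in sgControl PBS and at 16.0, 15.4 and 15.4 CPM in sgControl SCF. In sgEGR1 cells it stood at 2.17, 2.38 and 2.62 CPM after PBS and at 18.6, 23.9 and 18.7 CPM after SCF. Replicate 1 did not stand out here, at 0.868 to 1.05 times the mean of replicates 2 and 3. The coefficient of variation over 3 libraries was 2.26% to 14.9% for FOSL1, against 88.2% to 132% for FOS, 17.4% to 55.2% for FOSB and 12.6% to 24.4% for FOSL2.

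FOSL2 showed the narrowest range across the groups. It stood at 13.7, 10.6 and 9.93 CPM in sgControl PBS and at 22.1, 16.9 and 15.3 CPM in sgControl SCF. In sgEGR1 cells it stood at 17.3, 13.7 and 14.3 CPM after PBS and at 25.6, 19.0 and 16.0 CPM after SCF. The SCF and PBS libraries did not overlap in sgControl cells, whereas in sgEGR1 cells the library labelled sgEGR1 SCF replicate 3, at 16.0 CPM, lay below sgEGR1 PBS replicate 1.

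**Figure D1:**
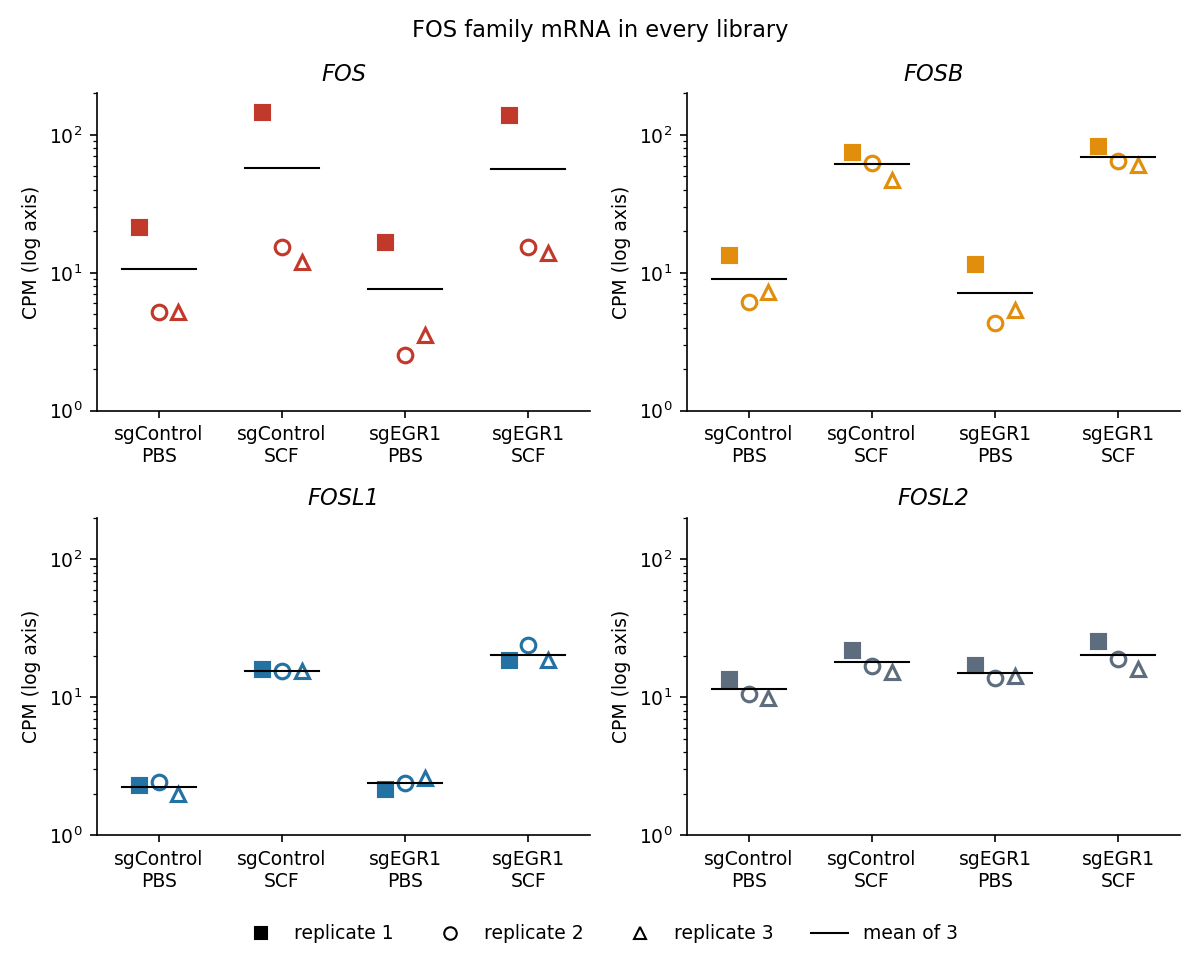
Level of each FOS family member in every library, in CPM on a log axis, by group; filled squares are replicate 1, open circles replicate 2, open triangles replicate 3, and lines the mean of 3. For FOS the replicate 1 squares sit at 16.7 to 21.5 CPM after PBS and at 141 to 146 CPM after SCF, far above the other libraries of their groups, whereas for FOSL1 the 3 libraries of each group lie close together.

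The first comparison asked how SCF changed the family in sgControl cells. FOSB and FOSL1 rose, by 6.84-fold and 6.94-fold. The log2 fold changes were 2.77 ± 0.343 (SE) for FOSB (edgeR adjusted p = 0.00108) and 2.80 ± 0.130 for FOSL1 (edgeR adjusted p = 9.57e-07). FOS differed by 2.44 ± 1.18 on the log2 scale and FOSL2 by 0.67 ± 0.191, and neither passed (edgeR adjusted p = 0.380 and 0.0968). DESeq2 called FOSL2 as well (DESeq2 adjusted p = 0.0187), and so 3 members in all. Thus 2 of 4 members were called higher, where 2.12% of all genes tested were. The libraries of the groups did not overlap for 3 of 4 members, against 10.4% of all genes with every SCF library above every PBS library.

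In sgEGR1 cells the same members were called. FOSB rose by 9.87-fold (log2 fold change 3.30 ± 0.354, edgeR adjusted p = 0.000468) and FOSL1 by 8.50-fold (3.09 ± 0.129, edgeR adjusted p = 2.92e-07). FOS, at a log2 difference of 2.93 ± 1.23, and FOSL2, at 0.42 ± 0.189, did not pass (edgeR adjusted p = 0.278 and 0.320). Again 2 of 4 members were called higher, against 1.81% of all genes, and 2 of 4 did not overlap, against 11.2%. Omitting the library labelled sgEGR1 SCF replicate 3 gave log2 fold changes of 3.40 for both FOS and FOSB, 3.15 for FOSL1 and 0.57 for FOSL2, with FOSB and FOSL1 again the called members. Averaged over both guides, 3 of 4 members were called higher, against 5.58% of all genes: FOSB by 8.22-fold, FOSL1 by 7.68-fold and FOSL2 by 1.46-fold (log2 fold change 0.54 ± 0.134, edgeR adjusted p = 0.0252). The FOSL2 call was lost when any 1 of 5 libraries was left out, namely sgControl PBS replicate 2 or 3, sgControl SCF replicate 1, or sgEGR1 PBS replicate 2 or 3 (edgeR adjusted p = 0.0545 to 0.0677), and its fold lay under the 1.5-fold of a stricter rule. FOS averaged 2.69 ± 0.850 on the log2 scale (edgeR adjusted p = 0.0738). Omitting the library labelled sgEGR1 SCF replicate 3 gave averages of 2.92 for FOS (edgeR adjusted p = 0.0666), 3.09 for FOSB, 2.97 for FOSL1 and 0.62 for FOSL2, and the same 3 members were called.

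Set side by side by replicate number, FOS was higher after SCF at every number with either guide. The numbers do not show that PBS and SCF libraries are paired: by residuals, 3 of 6 libraries with each guide correlated best with their own number. The ratios are therefore a description. The SCF library exceeded the PBS library of the same number by 6.82, 2.96 and 2.31-fold in sgControl cells and by 8.43, 6.06 and 3.93-fold in sgEGR1 cells (replicates 1, 2 and 3). With a term for replicate 1 added, the FOS log2 fold change was 2.07 in sgControl cells (edgeR adjusted p = 0.000170). It was 2.68 in sgEGR1 cells (edgeR adjusted p = 3.63e-05). All 4 members were then called with each guide, against 5.28% and 5.04% of all genes called higher. From replicates 2 and 3 only, the FOS log2 fold changes were 1.40 and 2.26 (edgeR adjusted p = 0.00166 and 9.02e-05). In that fit all 4 members were called in sgControl cells and 3 of 4 in sgEGR1 cells, where FOSL2 differed by 0.32 (edgeR adjusted p = 0.118), against 2.59% and 2.79% of all genes called higher. Without a term for replicate 1, the FOS value rested on the replicate 1 libraries: in sgControl cells the log2 difference was 0.36 without sgControl SCF replicate 1 and 3.47 without sgControl PBS replicate 1, and in sgEGR1 cells it was 0.98 without sgEGR1 SCF replicate 1 and 4.22 without sgEGR1 PBS replicate 1. Over all alternatives with a value, the edgeR adjusted p of FOS ran from 0.000170 to 0.938 in sgControl cells and from 3.63e-05 to 0.763 in sgEGR1 cells, and DESeq2 gave FOS no adjusted p in these comparisons.

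The other members differed less by replicate number. The ratio of SCF to PBS within a number was 5.53, 10.3 and 6.51 for FOSB in sgControl cells and 7.15, 14.8 and 11.3 in sgEGR1 cells, lowest in replicate 1 with either guide. For FOSL1 it ranged from 6.31 to 10.03 over the 6 pairs, and for FOSL2 from 1.12 to 1.62. The difference in SCF response between replicate 1 and replicates 2 and 3, on the log2 scale, was 1.12 ± 0.170 for FOS (edgeR adjusted p = 0.106), -0.70 ± 0.168 for FOSB (edgeR adjusted p = 0.619), -0.0051 ± 0.203 for FOSL1 and 0.15 ± 0.117 for FOSL2 (edgeR adjusted p = 1.00 for both). By edgeR 0 of 4 members passed, 2 of them had an unadjusted p under 0.05, and 0.0129% of all genes passed. FOS did pass under 3 alternatives: DESeq2 (adjusted p = 0.00114), no filter on low counts (edgeR adjusted p = 0.00112) and without sgEGR1 PBS replicate 2 (edgeR adjusted p = 0.0185).

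**Figure D2:**
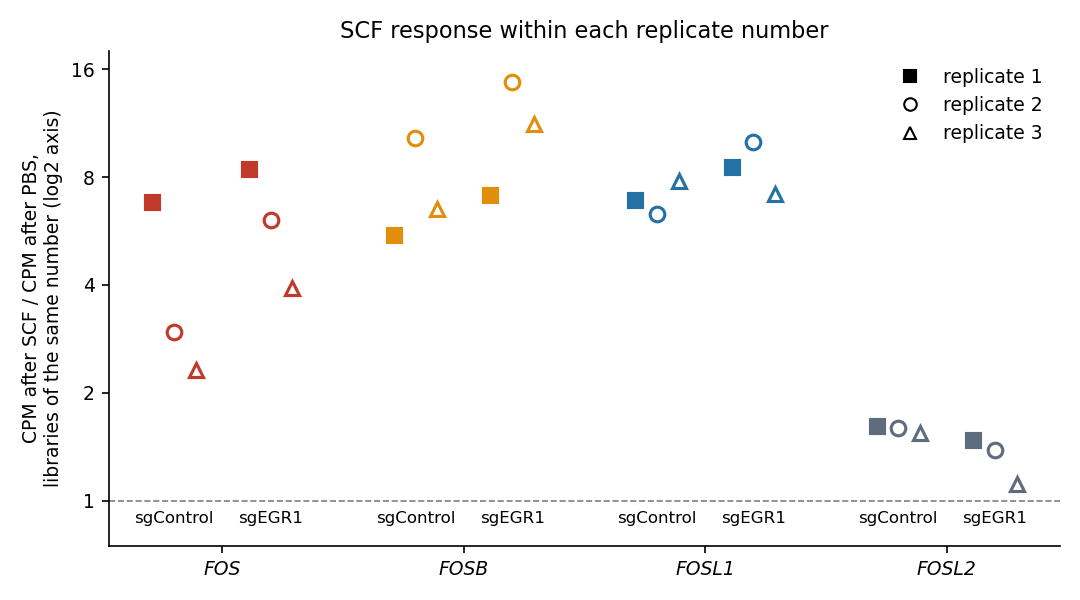
Ratio of CPM after SCF to CPM after PBS for libraries of the same replicate number, on a log2 axis, for each member and guide; the dashed line marks a ratio of 1 and symbols mark the replicate number. All 24 ratios lie above 1, from 1.12 for FOSL2 to 14.8 for FOSB, and for FOS the replicate 1 squares are the highest of each guide. The numbers do not show that PBS and SCF libraries are paired.

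Levels per kb of exon allowed the members to be ranked within a library. The merged exons may be longer than the transcript expressed, which was not determined, so close orders rest on the lengths used. In sgControl PBS the mean share of FOSL2 was 22.7% per kb and 37.0% by CPM, and that of FOSL1 17.6% and 7.56%. In replicates 2 and 3 of sgControl PBS the family summed to 5.52 and 5.37 CPM per kb. FOS held 29.8% and 30.4% of that sum, FOSL2 26.8% and 25.8%, FOSL1 23.5% and 19.5%, and FOSB 19.9% and 24.3%, so no member held most of it. After SCF the sum was 26.7 and 22.6 CPM per kb in the same replicates, of which FOSB held 42.4% and 37.7% and FOSL1 30.6% and 36.2%. FOS then held 18.2% and 16.7%, and FOSL2 8.84% and 9.47%.

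Replicate 1 had another makeup. FOS held 54.7% of the family sum in sgControl PBS and 64.7% in sgControl SCF, and 48.1% and 60.9% in the sgEGR1 libraries. The replicate 1 family sum was 71.0 and 72.5 CPM per kb after SCF, against 22.6 to 31.8 in the other SCF libraries. In replicates 2 and 3 of sgEGR1 PBS, FOSL2 was the leading member, with 40.3% and 36.6% of 4.76 and 5.45 CPM per kb. In replicates 2 and 3 of sgEGR1 SCF, FOSB held 36.5% and 39.6% and FOSL1 39.9% and 36.3%, and their order differed between these libraries. FOS had the highest mean of each group. In sgControl PBS it averaged 3.34 ± 2.94 CPM per kb, against 1.61 ± 0.718 for FOSB, 1.59 ± 0.280 for FOSL2 and 1.19 ± 0.127 for FOSL1. Its libraries there, from 1.63 to 6.74, overlapped those of FOSB and FOSL2, whereas those of FOSL1 all lay lower. After SCF the means were 18.2 ± 24.0 for FOS, 11.1 ± 2.48 for FOSB, 8.27 ± 0.187 for FOSL1 and 2.53 ± 0.499 for FOSL2 in sgControl cells. The FOS range then took in those of FOSB and FOSL1, and FOSL2 was below the other 3 members in every SCF library.

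**Figure D3:**
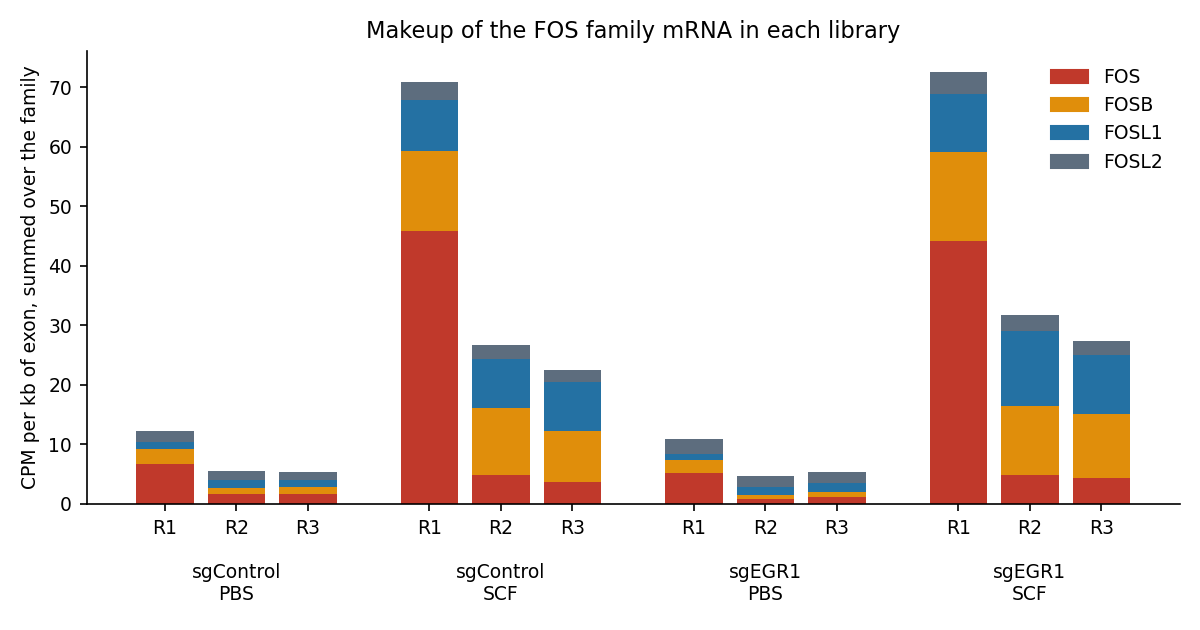
Family sum in CPM per kb of exon for each of the 12 libraries, stacked by member, with bars grouped by guide and treatment and labelled by replicate. After SCF the sum is 71.0 and 72.5 in the replicate 1 libraries, where FOS takes the largest part, and 22.6 to 31.8 in the others, where FOSB and FOSL1 do.

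The guide comparison asked whether the family differed between sgEGR1 and sgControl cells. After PBS, edgeR called 0 of 4 members and 0% of all genes, with 715 genes at an unadjusted p under 0.05. EGR1, the targeted gene, was itself not called, at a log2 difference of -2.59 after PBS (edgeR adjusted p = 0.999). It was not called by edgeR after SCF either, at -1.03 with the library labelled sgEGR1 SCF replicate 3 included (unadjusted p = 0.0406). That was the 1 unadjusted p under 0.05 among the 15 other immediate early genes tested, a list that holds EGR1. Without that library, edgeR called 1 gene of this list lower after SCF. DESeq2 with all libraries called 1 gene of the list after PBS and 0 after SCF. The 0 calls therefore do not show that the family was unchanged. The log2 differences, sgEGR1 relative to sgControl, were -0.53 for FOS (95% confidence interval -3.29 to 2.23), -0.36 for FOSB (-1.17 to 0.45), 0.09 for FOSL1 (-0.21 to 0.40) and 0.40 for FOSL2 (-0.018 to 0.82), with an edgeR adjusted p = 0.999 for each. Of the members, 0 reached an unadjusted p under 0.05. DESeq2 also called 0 members, though it called 20 genes in all. The FOSL2 libraries did not overlap, with sgControl at 9.93 to 13.7 CPM and sgEGR1 at 13.7 to 17.3 CPM, the nearest libraries being 13.69 and 13.75 CPM; 9.31% of all genes were without overlap in either direction. With the replicate number as a block, the FOSL2 difference was 0.42 (edgeR adjusted p = 0.127), and 0.41 when the blocked fit also omitted the library labelled sgEGR1 SCF replicate 3 (edgeR adjusted p = 0.0486, the lowest of 21 alternatives that reached up to 1.00).

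After SCF, 0 of 4 members were again called, with 0% of all genes by edgeR (361 at an unadjusted p under 0.05), and DESeq2 called 0 members and 5 genes. FOSL1 was 1.31-fold higher in sgEGR1 cells, at 20.4 ± 3.05 against 15.6 ± 0.353 CPM, and all 3 sgEGR1 libraries lay above all 3 sgControl libraries, as in 7.14% of all genes. Its log2 difference was 0.39 ± 0.112 (unadjusted p = 0.00487, edgeR adjusted p = 1.00), the single unadjusted p under 0.05 among the members, and 0.44 on omitting the library labelled sgEGR1 SCF replicate 3 (edgeR adjusted p = 1.00). FOS differed by -0.036 (95% confidence interval -2.36 to 2.29), FOSB by 0.17 (-0.49 to 0.83) and FOSL2 by 0.16 (-0.25 to 0.56). On omitting the library labelled sgEGR1 SCF replicate 3, these differences were 0.43, 0.25 and 0.30.

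The intervals above come from the fit without the block. Libraries of the same number were therefore also set side by side. After PBS, sgEGR1 stood at 0.778, 0.484 and 0.678 times sgControl for FOS in replicates 1, 2 and 3, and at 0.857, 0.714 and 0.736 times for FOSB, lower in 3 of 3 pairs for both. After SCF the FOS ratios were 0.962, 0.991 and 1.15. With the block, the FOS difference was -0.59 after PBS (95% confidence interval -1.25 to 0.066, edgeR adjusted p = 0.534) and 0.019 after SCF (-0.44 to 0.48, edgeR adjusted p = 1.00). The other members differed by -0.36 (FOSB, -0.81 to 0.086), 0.097 (FOSL1, -0.21 to 0.40) and 0.42 (FOSL2, 0.24 to 0.59) after PBS. After SCF they differed by 0.17 (-0.13 to 0.48), 0.38 (0.16 to 0.59) and 0.15 (-0.0115 to 0.31), respectively. These intervals are not adjusted, and those of FOSL2 after PBS and FOSL1 after SCF excluded 0. Their edgeR adjusted p were 0.127 and 0.536, and 0 of 4 members passed with either treatment.

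The SCF response itself was not called different between the guides for any member, with 0% of all genes called, 306 genes at an unadjusted p under 0.05 and an edgeR adjusted p = 1.00 for each member. The log2 difference of the responses, sgEGR1 minus sgControl, was 0.50 for FOS (95% confidence interval -3.11 to 4.11), 0.53 for FOSB (-0.52 to 1.57), 0.29 for FOSL1 (-0.10 to 0.68) and -0.25 for FOSL2 (-0.83 to 0.34). Of the members, 0 had an unadjusted p under 0.05. Leaving out single libraries moved the FOS value between -1.46 and 2.57, with the extremes reached without sgEGR1 SCF replicate 1 and without sgControl SCF replicate 1. Omitting the library labelled sgEGR1 SCF replicate 3 gave differences of 0.96 for FOS, 0.62 for FOSB, 0.35 for FOSL1 and -0.10 for FOSL2. DESeq2 called 4 genes in all and 0 members.

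**Figure D4:**
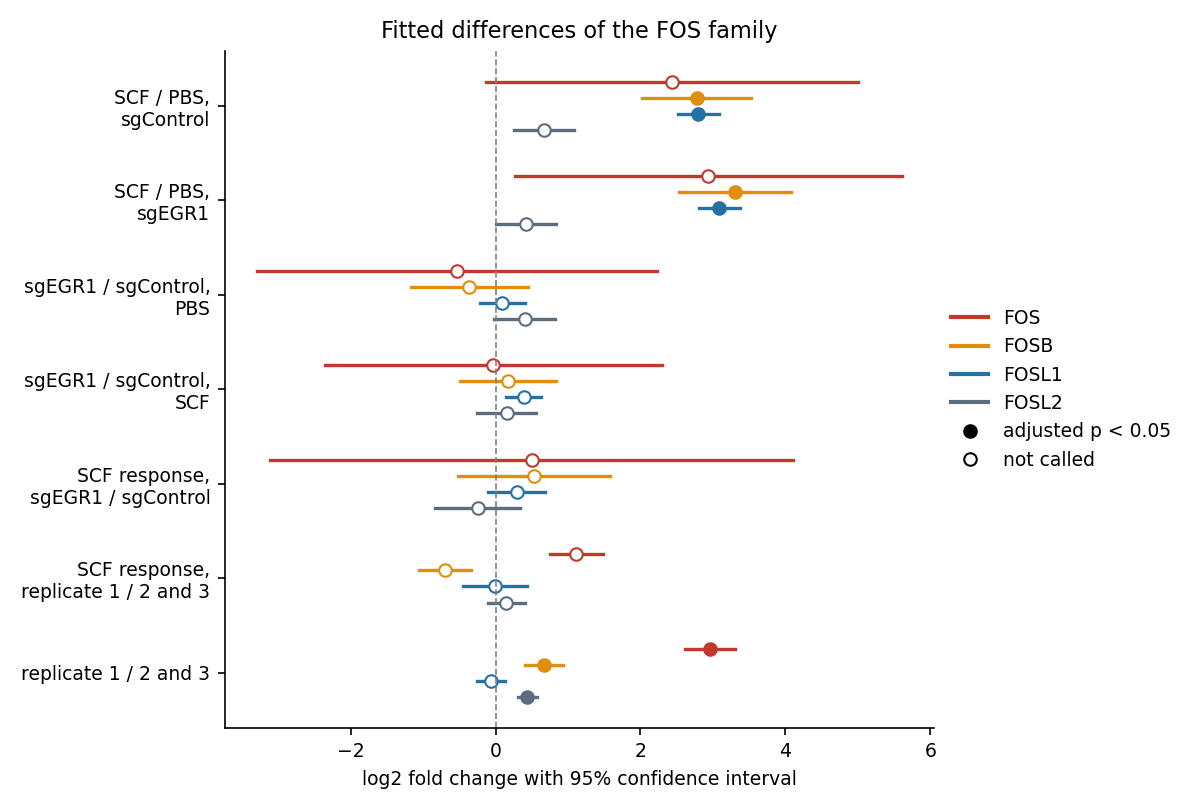
Log2 fold changes of the 4 members with 95% confidence intervals from edgeR in 7 comparisons; filled points passed an adjusted p of 0.05 and open points did not. FOSB and FOSL1 are filled for SCF with either guide, no member is filled between guides, and the FOS intervals are the widest of the first 5 comparisons, whose model has no term for replicate 1.

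The difference by replicate number was then tested directly. This test counts the replicate 1 library of each group as a separate observation. Its p-values therefore do not measure the spread between replicate numbers. FOS was 7.77-fold higher in replicate 1 than in replicates 2 and 3 (log2 2.96 ± 0.162, edgeR adjusted p = 1.03e-07), and 15 of the 15492 genes had a larger log2 fold change in this direction. FOSB was 1.59-fold higher (edgeR adjusted p = 0.00116) and FOSL2 1.35-fold higher (edgeR adjusted p = 0.000154). FOSL1 differed by -0.07 ± 0.0894 on the log2 scale (95% confidence interval -0.26 to 0.12, edgeR adjusted p = 0.623). Thus 3 of 4 members were called higher in replicate 1, against the 13.1% of all genes given above. Among heat shock and handling genes, 5 of 9 tested were higher in replicate 1 and 2 lower, with a median log2 difference of 0.11 against 0.0044 over all genes. Of the 18 erythroid genes, 1 was higher and 8 were lower (median -0.09), where 13.4% of all genes were lower. Of the 5 markers of other cells that could be tested, VIM was higher (log2 0.60). The other 4 were lower, namely PTPRC (-0.38), ITGA2B (-0.93), CD34 (-0.99) and EPCAM (-0.20). The summed level of all 17 such markers was highest in replicate 1 in all 4 groups, at 324, 346, 341 and 367 CPM in sgControl PBS, sgControl SCF, sgEGR1 PBS and sgEGR1 SCF, where the lowest libraries stood at 302, 329, 303 and 326 CPM. That sum includes VIM and does not speak for the 4 markers that were lower. The part of the heat shock, erythroid and marker genes in the FOS difference was not tested.

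The remaining genes of the pathway were read from fixed lists, beside a median log2 SCF response of -0.0045 over all genes and with 5.58% of all genes called higher and 3.45% lower on average over both guides. Among the JUN, ATF and MAF genes listed as AP-1 partners, not all of which pair with FOS proteins, 4 of 13 tested genes rose, 2 fell and 7 did not pass (median 0.33). MAFF, a small MAF protein, rose by 0.84 ± 0.136 (edgeR adjusted p = 0.00236) and JUNB by 0.68 ± 0.0478 (edgeR adjusted p = 6.04e-06), while ATF4 rose by 0.40 and MAFA fell by 0.55 on the log2 scale. JUNB averaged 275 ± 15.2 CPM in sgControl PBS and 432 ± 31.1 CPM in sgControl SCF. JUN, the classical partner of FOS, is added here after its values were seen: it averaged 23.4 ± 11.6 CPM after PBS and 30.3 ± 11.7 CPM after SCF in sgControl cells, did not pass for SCF (log2 0.48, edgeR adjusted p = 0.401), and was 1.03 higher on the log2 scale in replicate 1 (edgeR adjusted p = 7.36e-06). In all, 5 of the 13 partners were higher in replicate 1 and 0 were lower, where 13.1% of all genes were higher and 13.4% lower.

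Upstream of the FOS promoter, SRF rose by 1.08 ± 0.0628 (edgeR adjusted p = 2.12e-06), and of the 12 SRF, ternary complex, CREB and STAT genes tested it was the 1 that rose, while MRTFA fell by 0.20 on the log2 scale (median 0.013). Of 19 genes of the cascade from Kit to ERK and its substrate kinases, RPS6KA5 rose by 0.27, SOS2 fell by 0.15, and 17 did not pass (median -0.0027). The feedback genes of ERK rose with FOSB and FOSL1: 8 of 10 tested rose and 0 fell (median 1.02). DUSP6 and DUSP2, phosphatases of the MAP kinases, rose by 2.42 ± 0.132 and 2.32 ± 0.199 on the log2 scale, followed by SPRY4 at 2.12 ± 0.480 and DUSP5 at 1.80 ± 0.215. Of the other immediate early genes 9 of 15 rose and 0 fell (median 0.93), among them 3 EGR factors. EGR1 rose by 5.44 ± 0.441 (4.92 without the library labelled sgEGR1 SCF replicate 3), EGR2 by 2.40 ± 0.155 and the nuclear receptor NR4A1 by 1.67 ± 0.293. EGR3 had 0 counts in all 6 PBS libraries and 10 to 28 in the SCF libraries, at least 31.4-fold higher in CPM against a floor of 3 counts over the PBS libraries together.

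Lists of genes that act on or after FOS were read in the same way. Of 8 factors that bind AU-rich elements, the elements through which FOS mRNA is degraded, 0 passed in either direction (median 0.030; edgeR, with 3 of them at an unadjusted p under 0.05 and 0 called by DESeq2). Of 8 AP-1 target genes known from other cell types, CCND1 rose by 0.79 ± 0.0858 and VEGFA by 0.45 ± 0.0942, and 6 did not pass (median 0.051). Of 9 heat shock and handling genes, DNAJB1 rose by 0.40 ± 0.0501, and 8 did not pass (median 0.050). Of the 18 erythroid genes, SLC4A1 and EPOR fell by 0.26 and 0.14 on the log2 scale, and 16 did not pass (median -0.12). Of the 5 tested markers of other cells 0 passed for SCF by edgeR or DESeq2, and 0 had an unadjusted p under 0.05 (median 0.14). By replicate number, 13.1% of all genes were higher in replicate 1 and 13.4% lower. Beside these shares, 6 of the 8 AP-1 target genes, 6 of the 15 other immediate early genes and 3 of the 10 ERK feedback genes were higher in replicate 1, and 0, 2 and 0 were lower. Of the SRF and ternary complex list, 2 of 12 were higher and 7 lower, of the cascade 1 of 19 higher and 2 lower, and of the AU-rich element factors 1 of 8 higher and 3 lower. List counts without the library labelled sgEGR1 SCF replicate 3 were added after the data were seen. For the SCF response averaged over both guides they differed by the loss of SOS2 and EPOR (edgeR adjusted p = 0.106 and 0.0666). For replicate 1 no count differed by more than 1 gene.

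**Figure D5:**
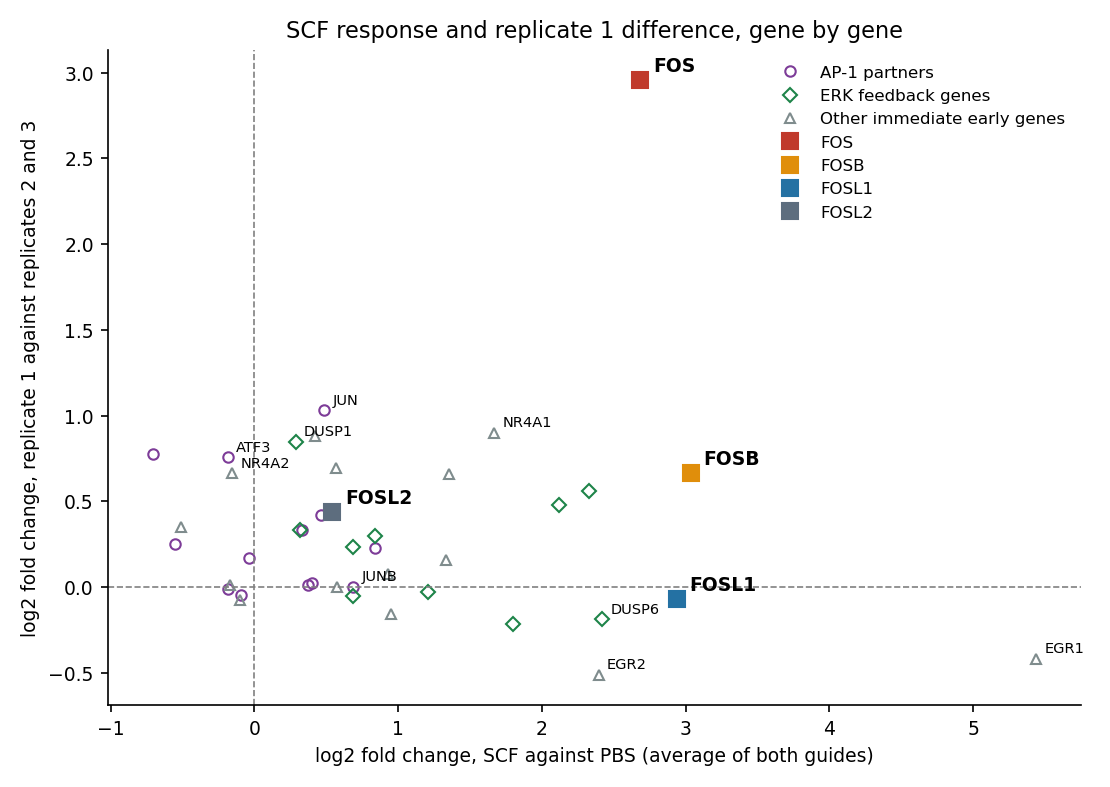
Log2 fold change for SCF against PBS, averaged over both guides (horizontal axis), and for replicate 1 against replicates 2 and 3 (vertical axis), for the 4 members (squares) and the tested AP-1 partners, ERK feedback genes and other immediate early genes (open symbols); EGR3, with 0 counts after PBS, is not drawn. Both axes use the same 12 libraries. FOS lies at 2.69 and 2.96, above every drawn gene of the 3 lists on the vertical axis, FOSL1 lies at 2.94 and -0.07, and JUNB lies near 0 on the vertical axis.

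The genes whose levels ran most alike with each member were found by Pearson's r of log2(CPM + 0.5) over the 12 libraries among 11175 genes with a mean of at least 2 CPM. These values describe libraries that share treatment, guide and replicate number. The genes were chosen by likeness over the same libraries that gave the calls below, so those calls follow in part from the choice and are not support. Over all genes, 5.58% were called higher for SCF on average over both guides and 13.1% higher in replicate 1. Most like FOS were LBH (r = 0.972), REEP3 (0.963), PATZ1 (0.959), ERF (0.955) and CHPF2 (0.947), and all 5 were called higher in replicate 1, by 0.20 to 0.34 on the log2 scale, with ERF the 1 of them called for SCF. Among those most like FOSB were IER2 (0.987), RHOB (0.983), DESI2 (0.981) and FJX1 (0.978), and these 4 were called for SCF. Most like FOSL1 were MAFG (0.990), MCL1 (0.989), SLC25A25 (0.987), SZRD1 (0.987) and PDXP (0.982), all 5 called for SCF. Most like FOSL2 were TRIB3 (0.972), TADA2B (0.969), PFKFB3 (0.967), PAQR4 (0.965) and DYNLL2 (0.965), of which DYNLL2 was called for SCF and all 5 for replicate 1.

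Among the members themselves, FOSB and FOSL1 ran most alike over the 12 libraries (r = 0.952), and FOS ran with FOSL2 (0.820) more than with FOSB (0.766) or FOSL1 (0.599). After subtraction of each group mean, the order changed. The residuals of FOS correlated at 0.956 with those of FOSL2 and at 0.804 with those of FOSB, but at -0.23 with those of FOSL1. The residuals of FOSB correlated at 0.781 with those of FOSL2 and at -0.25 with those of FOSL1. These residuals come from 4 groups of 3 libraries in which replicate 1 stands apart, and they are given as a description.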

How the data were processed

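The 12 HUDEP-2 libraries were analyzed from 1 table. Per the study's methods, the authors mapped read pairs to hg38 using HISAT, and they deposited StringTie's estimated counts, which are scaled neither for depth nor for length. All values were whole (0 were not), and each column was 1 library (0 were unassigned). Annotation release and the use of strand in counting are not given in the sources used here, and labels and methods name different library kits. The table's second guide code was read as sgEGR1, the remaining guide in the labels. No 2 replicates were alike within sampling noise. P-values measure the spread between these cultures, and those for replicate 1 do not measure the spread between replicate numbers.

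Low counts were filtered by filterByExpr, totals were scaled by TMM, and edgeR 4.0.16 (R 4.3.3) fitted 1 mean per group to all 12 libraries for quasi-likelihood F tests. A gene was called when its Benjamini-Hochberg p over 15492 genes fell under 0.05. The SE is the log2 fold change divided by the square root of F. Alternatives were DESeq2 1.42.0, other scaling and filters, a replicate block, a term for replicate 1, replicates 2 and 3 only, and leaving out each library. On simulated counts for SCF in sgControl cells, edgeR recovered 159 of 200 genes changed 2-fold. It made 16 false calls beside those 159, among 15177 genes. The simulated libraries held no replicate 1 difference, and only genes above a minimum count were changed, so the simulation does not cover the FOS result. Residuals of same-numbered libraries correlated between guides at 0.232, 0.103 and 0.119 (PBS) and 0.269, 0.102 and 0.126 (SCF). All exceeded 0.1, so the numbers were taken to pair libraries there, from the data and not the labels.

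The members and gene lists were chosen with earlier results of these data known. Named were the 4 members, the 5 genes most like each, EGR1, and from each list up to 4 genes called in the average SCF response with the largest log2 fold change. A few items that these rules would name are not reported here.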

Additional observations from a re-analysis of the deposited data

How the results depend on the processing

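FOSB and FOSL1 stayed called for SCF under all 21 alternatives with each guide, and 0 results of the members reversed a called direction. The 4 members were all called in sgControl cells with a replicate block, with the block minus the library labelled sgEGR1 SCF replicate 3, with a term for replicate 1 and in replicates 2 and 3 only, and all 4 in sgEGR1 cells under the first 3 of these. For FOS, the blocked SCF response was 2.07 in sgControl cells (edgeR adjusted p = 0.000384) and 2.68 in sgEGR1 cells (edgeR adjusted p = 8.51e-05). Without the block, the FOS response passed in 0 of the 12 fits that left out 1 library, with either guide. Residuals of same-numbered PBS and SCF libraries correlated at 0.272, 0.0077 and 0.108 with sgControl and 0.230, 0.0749 and 0.0620 with sgEGR1, and 3 of 6 libraries with each guide correlated best with their own number, so the numbers do not show pairing there. With the block, 4.88% and 4.71% of all genes were called higher for SCF in sgControl and sgEGR1 cells. The block changed no member's call between guides.

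Between guides after PBS, 1 member (FOSL2) was called in the blocked fit that omitted the library labelled sgEGR1 SCF replicate 3. For the SCF response of replicate 1 against 2 and 3, 1 member (FOS) was called by DESeq2 and with no filter. Over all genes, SCF calls in sgControl cells numbered 448, and 759 by DESeq2, 1184 with the block, 1143 with the block minus that library, 1289 with a term for replicate 1, 192 from only the groups compared, 115 at 1.5-fold, and 194 to 448 on leaving out 1 library. In sgEGR1 cells they numbered 402, and likewise 773, 1235, 643, 1326, 250, 118 and 176 to 428, with 690 in replicates 2 and 3. Averaged, they numbered 1399, and 2799 and 2269 with the block, 2868 with the term and 220 at 1.5-fold. Calls between guides numbered 0, against 20 (PBS) and 5 (SCF) by DESeq2, 2 and 2 with the block, 42 and 30 with the block minus that library, 4 and 2 with the term, 3 and 2 in replicates 2 and 3, 1 after PBS with no filter, and 0 to 1 and 0 to 2 on leaving out 1 library. The response difference between guides had 0 calls, 4 by DESeq2, 2 in replicates 2 and 3, 2 with the block minus that library, and 0 to 2 on leaving out 1. The replicate 1 response difference had 2 calls, 20 by DESeq2, 11 with no filter and 2 to 8 on leaving out 1. The replicate 1 difference had 4116 calls and 598 at 1.5-fold. The cause of these shifts was not tested. Depth limits FOSL1 most: its PBS libraries held 51 to 75 counts, a counting error of 11.5% to 14.0%.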
